A study of Homo sapiens with 6 samples.

Results

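Transcripts of MIA PaCa-2, an established line of human pancreatic carcinoma, were sequenced to ask which of them differ after exposure to recombinant human cytoglobin (rhCYGB). The genes described here are those of zinc buffering and zinc export, 10 of the 35993 genes in the table. They are the metallothioneins MT1A, MT1E, MT1F, MT1G, MT1H, MT1M, MT1X and MT2A, the zinc exporter SLC30A1 and the metal-sensing transcription factor MTF1. They were found by gene symbol, after their response in these same 6 libraries was known. Their values are therefore given as a description, with no test. The control group was 3 libraries of untreated cells, and the treated group was 3 libraries of cells that received 4 µM rhCYGB for 48 h. Both groups had been kept in medium with 1% FBS from the day before treatment. The protein carried a 6His tag, was expressed in Escherichia coli and was purified by immobilized metal affinity chromatography. The study adds that size exclusion chromatography followed, and reports typical heme activity, no endotoxin contamination and no in vitro toxicity. No buffer or inactive protein is described for the controls, so effects of the globin and of anything added with it cannot be told apart. The labels do not say whether the libraries came from separate cultures, so errors and p-values measure only the spread between these libraries.

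Metallothioneins are small cysteine-rich proteins that bind zinc and copper through their thiol groups. In human cells their functional genes lie in 1 cluster on chromosome 16. MTF1 is a zinc finger protein that senses free zinc, moves to the nucleus and binds metal response elements, short motifs in the promoters of metallothionein genes and of SLC30A1. SLC30A1 (ZnT1) carries zinc from the cytosol across the plasma membrane, whereas most transporters of the SLC39 (ZIP) family bring zinc into the cytosol. Metallothionein transcripts are also known to respond to cadmium, copper, glucocorticoids and oxidants.

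The read counts on genes summed to between 34838399 and 42271299 per library. After filtering, 14728 genes were tested with edgeR, and the biological coefficient of variation was 5.48%. No library was a copy of another. The carcinoma line markers KRT8, KRT18 and VIM were abundant in every library, at between 1151 and 12055 CPM (CPM are read counts relative to the scaled library size). Of 11 markers of endothelial, immune, acinar, stromal and muscle cells, 4 were at 0 in all libraries, including PECAM1 and PTPRC, and 4 were tested. The stromal and muscle markers COL1A1, PDGFRB and DES had too few reads to be tested. COL1A1 had 6, 10 and 6 reads in untreated libraries and 0 in treated ones. PDGFRB had at most 5 reads in any library, and DES at most 3. COL1A2, a collagen gene, was at 138 to 149 CPM in untreated and 6.25 to 7.92 CPM in rhCYGB libraries, and CDH5, the endothelial cadherin, was at 109 to 122 and 10.5 to 13.6 CPM. CD68 was at 34.3 to 38.0 and 70.4 to 72.4 CPM, and ACTA2 was below 6 CPM in every library. The part of these markers in the results was not tested. In bulk RNA, fewer cells that express a gene and less RNA per cell cannot be told apart.

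The promoter stretches of 4 members are shown because they hold the short motif through which MTF1 is known to act. RefSeq promoters, on GRCh38.p14, matched 5 of the 10 members, MT1H, MT1X, MT2A, MTF1 and SLC30A1. The 250 bases before each annotated gene start were searched on both strands for the core of the metal response element, TGCACNC or TGCGCNC, and the matches, none of which overlapped another, are in capitals. Sequences are 5′ to 3′ on the strand of the gene, so a match on the opposite strand appears as its reverse complement. MT2A is at chr16:56608334-56608583 on the plus strand, MT1H at chr16:56669564-56669813 on the plus strand, MT1X at chr16:56682220-56682469 on the plus strand and SLC30A1 at chr1:211579162-211579411 on the minus strand.
MT2A: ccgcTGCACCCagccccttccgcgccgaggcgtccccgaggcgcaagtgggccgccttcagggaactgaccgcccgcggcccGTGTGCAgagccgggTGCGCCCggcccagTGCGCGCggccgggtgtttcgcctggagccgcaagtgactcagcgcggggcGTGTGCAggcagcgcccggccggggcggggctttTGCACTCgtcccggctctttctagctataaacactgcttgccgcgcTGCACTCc
MT1H: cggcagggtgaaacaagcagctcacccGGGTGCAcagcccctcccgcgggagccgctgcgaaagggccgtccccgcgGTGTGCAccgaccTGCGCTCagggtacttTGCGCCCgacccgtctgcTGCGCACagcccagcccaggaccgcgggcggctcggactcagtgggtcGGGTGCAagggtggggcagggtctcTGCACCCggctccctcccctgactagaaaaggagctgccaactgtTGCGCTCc
MT1X: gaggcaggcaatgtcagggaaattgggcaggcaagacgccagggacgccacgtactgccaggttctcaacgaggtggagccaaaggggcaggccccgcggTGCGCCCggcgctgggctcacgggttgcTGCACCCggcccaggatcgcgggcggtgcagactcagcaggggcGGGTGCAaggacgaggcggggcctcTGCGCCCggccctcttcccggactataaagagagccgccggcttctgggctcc
SLC30A1: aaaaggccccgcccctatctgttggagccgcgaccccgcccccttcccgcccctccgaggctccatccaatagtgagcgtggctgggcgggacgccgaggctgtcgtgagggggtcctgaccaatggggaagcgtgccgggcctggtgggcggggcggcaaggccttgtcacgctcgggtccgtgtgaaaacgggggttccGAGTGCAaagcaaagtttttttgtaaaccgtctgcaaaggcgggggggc

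The MT2A stretch held 7 matches, 5 on the strand of the gene and 2 on the other. At least 7 matches were present in 9 of 27305 promoters of the same length (0.033%). MT1H held 8 matches, a number reached by 5 promoters (0.0183%), and MT1X held 4, a number reached by 100 promoters (0.366%). SLC30A1 held 1 match, on the opposite strand, between 49 and 43 bases before the start, and 24.7% of all promoters held at least 1. MTF1 itself held none. The matches are a description of these letters. The bases just after the annotated start lay in a GENCODE v29 transcript for MT2A, MT1H, MT1X and MTF1. For SLC30A1 they did not, so its start, and the stretch searched, are less certain. MT1H, with the most matches, had 0 reads in every library (below), and SLC30A1, with a single match, had the largest fold change of the members. Whether matches and fold changes go together was not tested.

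**Figure D1:**
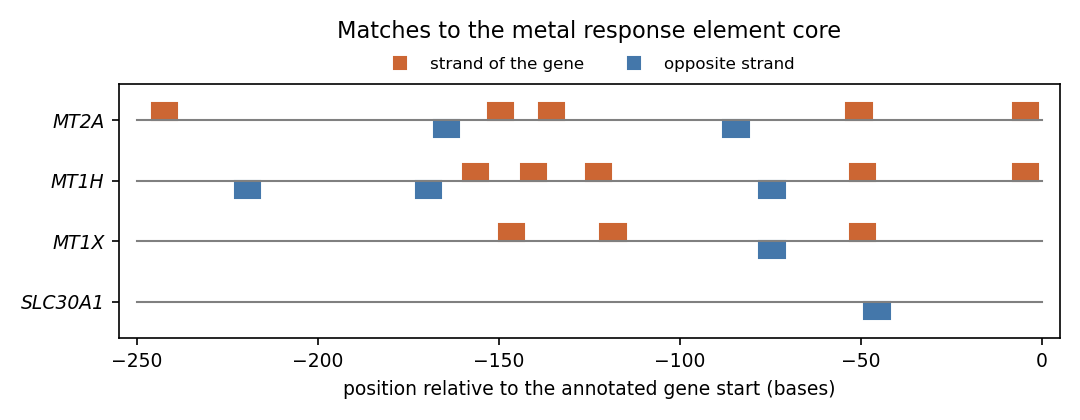
Positions of the metal response element core in the 250 bases before the annotated start of 4 genes. The horizontal axis is the position relative to the start in bases, boxes above each line are matches on the strand of the gene, and boxes below it are matches on the opposite strand. MT2A has 7 boxes, MT1H 8, MT1X 4 and SLC30A1 1.

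SLC30A1 and 5 of the 6 tested metallothionein members had higher transcript levels after rhCYGB treatment, and the sixth, MT1A, had a lower level. SLC30A1 had 10.7-fold higher CPM, and the abundant metallothioneins MT2A, MT1E and MT1X had 2.95-, 3.33- and 3.61-fold higher CPM. MTF1 was 1.61-fold higher, and MT1A was 1.58-fold lower. Of the 8 members with enough reads to be tested, 6 were 2-fold or more higher and 0 were 2-fold lower. Among all tested genes, 12.4% were called higher and 14.7% lower (edgeR adjusted p under 0.05 and 2-fold or more, 1833 and 2165 genes). Library scaling by total counts alone, which moved the median log2 fold change of all genes from -0.005 to -0.169, gave 1395 higher and 2719 lower. In 7 tested members the rhCYGB libraries lay above all untreated libraries, and in 1 they lay below, against 39.8% and 39.7% of all tested genes. Since the members were chosen on this contrast, these shares are printed as background only.

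**Figure D2:**
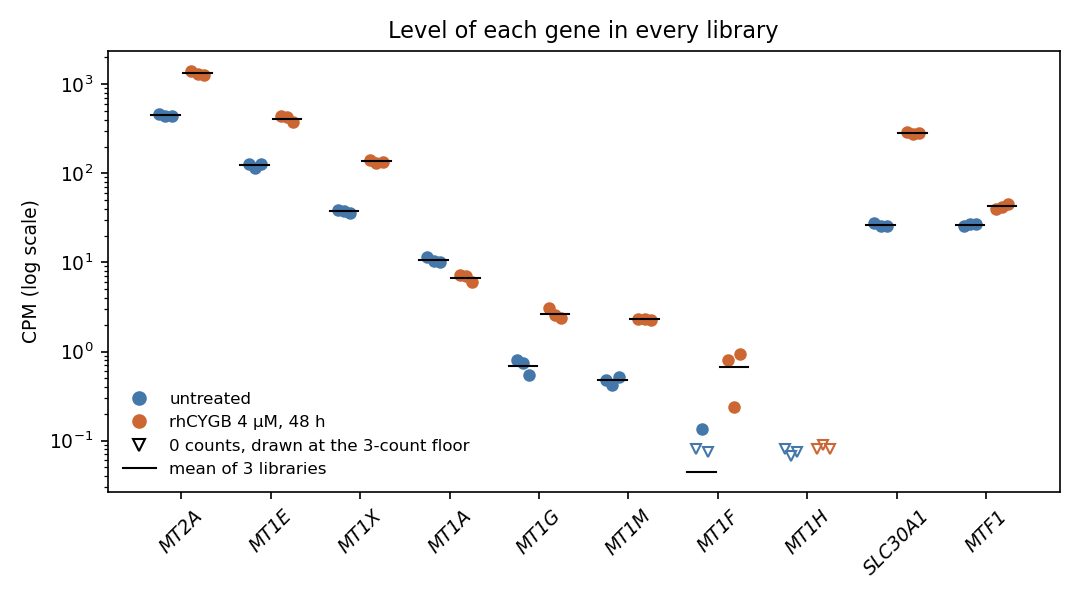
CPM of each member in each of the 6 libraries on a log axis, with blue points for untreated and orange points for rhCYGB-treated cells, and lines at the mean of 3 libraries. SLC30A1 lies at 25.5 to 27.6 CPM in untreated and 276 to 289 CPM in treated libraries, MT1A is lower in all 3 treated libraries, and open triangles mark libraries with 0 counts, drawn at the level of 3 counts.

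MT2A, the most abundant metallothionein of most human cells, was also the most abundant member here. It was at 461, 446 and 445 CPM in untreated libraries and at 1416, 1306 and 1265 CPM in rhCYGB libraries. The groups did not overlap, and the lowest treated library was far above the highest untreated one. The log2 fold change was 1.56 (SE 0.042), and 823 of the 14728 tested genes had a fold change at least as high.

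MT1E, a protein-coding MT1 isoform, was at 127, 116 and 128 CPM in untreated libraries and at 436, 426 and 373 CPM in treated ones, a log2 fold change of 1.74 (SE 0.056). MT1X, at the far end of the cluster, was at 39.2, 37.8 and 35.9 CPM and then at 143, 129 and 136 CPM, a log2 fold change of 1.85 (SE 0.050). Neither gene had overlapping groups. For MT1E the third treated library was the lowest of its group, as it was for MT2A.

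MT1G and MT1M encode further MT1 isoforms and were detected at low levels. MT1G had 30, 33 and 22 reads in untreated libraries and 113, 85 and 88 reads in treated ones, with a log2 fold change of 1.94 (SE 0.243). MT1M had 18, 19 and 21 reads and then 87, 77 and 84 reads, with a log2 fold change of 2.28 (SE 0.246). These fold changes were as large as those of the abundant isoforms, and their standard errors were several times larger.

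MT1A, another metal-binding MT1 isoform, went the other way. It had 431, 462 and 410 reads in untreated libraries and 269, 233 and 221 in treated ones, or 10.6 ± 0.811 and 6.75 ± 0.662 CPM (mean ± SD, n = 3). Every treated library was below every untreated one. The log2 fold change was -0.66 (SE 0.108), and 3479 tested genes had a fold change at least as low. It stayed below 0 under every alternative processing tried, between -0.82 and -0.58.

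MT1F and MT1H did not pass edgeR's filter on low counts and have no fold change in the results above. MT1F had 0, 6 and 0 reads in untreated libraries and 30, 8 and 35 reads in treated ones. The treated library with 8 reads was close to the untreated library with 6. MT1F could be fitted in 6 alternatives, and 5 of them, the DESeq2 Wald test, no filter and 3 that left out 1 library, gave log2 fold changes of 3.16 to 4.09 (SE 0.735 to 0.993). The other left out the only untreated library with reads, so no fold is given for it. The fits that left out 1 library kept MT1F only through its treated reads. All these folds rest on few untreated reads and are a description, with no weight as support. MT1H had 0 reads in all 6 libraries, which allows a level of up to 0.0669 to 0.0902 CPM per library (3 counts, counting error only), so its expression was not detectable at this depth.

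SLC30A1, the plasma membrane zinc exporter, had the largest fold change of the tested members. It was at 27.6, 25.9 and 25.5 CPM in untreated libraries and at 289, 276 and 283 CPM in treated libraries, or 26.3 ± 1.12 and 283 ± 6.75 CPM (mean ± SD, n = 3). The groups were separated by a gap many times the spread inside either of them. The log2 fold change was 3.43 (SE 0.045), and 104 of the 14728 tested genes were at least as high.

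MTF1, the transcription factor of the pathway, was at 25.9, 26.7 and 26.7 CPM and then at 39.8, 42.4 and 45.3 CPM. The groups did not overlap. Its log2 fold change of 0.68 (SE 0.058) was below the 2-fold mark, and 3052 tested genes had a fold change at least as high. Since zinc acts on MTF1 protein, its transcript level says nothing of its activity in these cells.

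The deposited FPKM values take transcript length into account and allow levels to be compared between genes. In untreated libraries the mean FPKM was 1047 for MT2A, 268 for MT1E, 86.8 for MT1X, 25.0 for MT1A, 4.16 for SLC30A1, 3.10 for MTF1, 1.52 for MT1G and 1.08 for MT1M. MT1F followed at 0.0925 FPKM and MT1H at 0. The libraries of neighbouring genes in this order did not overlap, except for MT1F and MT1H. In treated libraries MT2A (2756 FPKM), MT1E (824 FPKM) and MT1X (280.0 FPKM) kept the first places. SLC30A1, at 39.9 FPKM, stood above MT1A, at 14.1 FPKM. MT1G was at 5.32, MT1M at 4.80, MTF1 at 4.45 and MT1F at 1.28 FPKM, and the libraries of MT1M and MTF1 overlapped.

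The table held 17 metallothionein loci in all, the 8 members and 9 others. Reads on them made up 0.0699%, 0.0673% and 0.0679% of all counts in untreated libraries and 0.189%, 0.181% and 0.170% in treated libraries. Summed as 1 feature, a calculation added after the data had been seen, the loci had a log2 fold change of 1.56 (SE 0.041). The make-up of this total differed little for its main component. MT2A held 69.7% ± 0.423 of the metallothionein reads in untreated and 69.7% ± 0.591 in treated libraries (SD, n = 3). MT1E held 19.1% and 21.6%, and MT1X held 5.83% and 7.14%. The share of MT1A was 1.65% in untreated and 0.354% in treated libraries.

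Of the 9 other loci, 5 had 0 reads in every library, among them MT3, the growth inhibitory factor of brain, and MT4, an isoform of stratified epithelium. MT1L, listed with a noncoding transcript, was the only one tested. It had 822, 1068 and 874 reads in untreated libraries and 660, 545 and 568 in treated ones. The groups did not overlap, and MT1L fell, with a log2 fold change of -0.44 (SE 0.072, edgeR adjusted p = 4.5e-05). Its share of metallothionein reads was 3.48% and then 0.867%.

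By the deposited positions, whose genome build is not named and is not GRCh38, the members of the cluster ran from MT2A (chromosome 16, 56642496 to 56643409) to MT1X (56716382 to 56718108), over 75.6 kb. Measured from the lower coordinate of MT2A, MT1L lay at 8.88 kb, MT1E at 17.2 kb, MT1M at 24.1 kb, MT1A at 30.1 kb, MT1F at 49.4 kb, MT1G at 58.1 kb, MT1H at 61.2 kb and MT1X at 73.9 kb. The loci that were lower after treatment thus lay between loci that were higher, with MT1L between MT2A and MT1E, and MT1A between MT1M and MT1G. MT1H, at 0 reads, lay between MT1G and MT1X. No member overlapped another gene of the table.

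**Figure D3:**
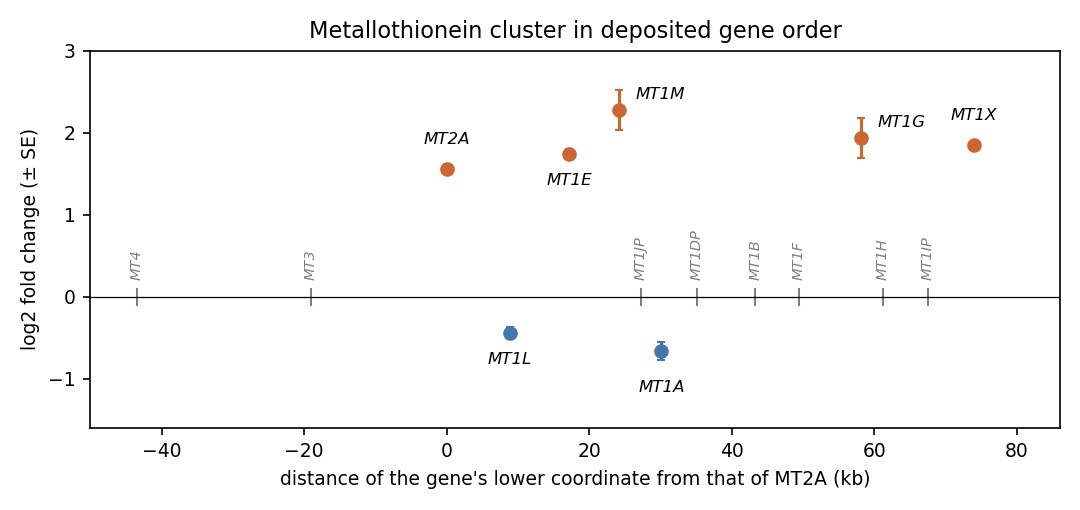
Log2 fold change of the tested metallothionein loci (points, ± standard error) against the distance of their lower coordinate from that of MT2A in kb. Orange points are higher and blue points lower after rhCYGB, and grey ticks on the zero line are positions of loci that were not tested and have no fold change. MT1A at -0.66 and MT1L at -0.44 sit among MT2A, MT1E, MT1M, MT1G and MT1X, at 1.56 to 2.28.

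Within 500 kb on either side of the cluster, 10 other genes were tested. Their log2 fold changes ran from -0.57 to 1.49, with a median of -0.24, against -0.005 over all tested genes. HERPUD1, an endoplasmic reticulum membrane protein of the degradation pathway, was the 1 gene called higher (1.49, SE 0.052, edgeR adjusted p = 1.02e-12), and 0 were called lower by 2-fold. Over all tested genes, 12.4% were called higher and 14.7% lower. The nearest tested genes, BBS2 on the MT4 side and NUP93 on the MT1X side, were at -0.41 (SE 0.044, edgeR adjusted p = 6.25e-07) and -0.17 (SE 0.036, edgeR adjusted p = 0.000539).

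Metallothionein transcripts resemble each other, and reads may be split between them. In GENCODE v29 transcripts, some of which are longer than those in the deposited table, pairs of members were between 71.1% (MT1M and MT2A) and 90.7% (MT1G and MT1H) identical. The share of 50-base windows that were identical to a window of another metallothionein gene was 2.17% for MT2A, 5.76% for MT1A, 7.05% for MT1M, 20.2% for MT1G and 20.4% for MT1H, and for MT1X it was 64 of 401 windows. The GENCODE transcripts of MT2A and MT1M had 786 and 829 bases, against 401 and 398 in the deposited table. Their shares and identities are therefore taken over more bases than those of the other members named. Among the tested members, MT1G had both few reads and a large share of such windows, 72 in number. MT1M had fewer reads still, and 55 such windows. Of the MT1G windows, 47 were shared with MT1X, which had 19231 reads over the 6 libraries, against 371 for MT1G. Whether reads of MT1X add to the MT1G counts was not tested. MT1A, lower after treatment, and MT2A, higher after treatment, both had few shared windows.

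Transcript counts were deposited for more than 1 form of MT1E, MT1G and MT1F. The longer form of MT1E (746 bases, NM_001363555) held 17.1%, 17.9% and 13.6% of MT1E reads in untreated libraries and 10.2%, 6.95% and 9.14% in treated ones. The groups did not overlap. The form of 398 bases (NM_175617) went from 104 to 375 CPM, and the longer form from 19.9 to 36.0 CPM, so most of the added MT1E reads were assigned to the shorter one. In GENCODE v29, NM_001363555 held 72 windows of 50 bases identical to another metallothionein gene, and NM_175617 held 35, over 704 bases there. Whether read sharing affects the MT1E shares was not tested. For MT1G, the form of 407 bases (NM_005950) held 34.2% ± 3.67 of reads in untreated and 22.2% ± 1.65 in treated libraries (SD, n = 3), and the other form differs from it by 3 bases in length. The MT1G shares rest on 22 to 113 reads per library.

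**Figure D4:**
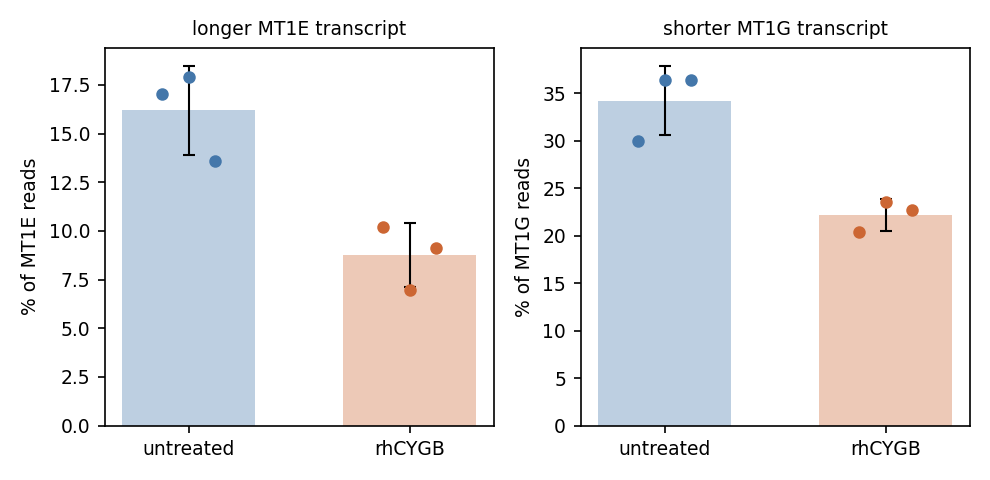
Share of the reads of MT1E assigned to its longer transcript (left) and of MT1G assigned to its shorter transcript (right), in percent. Bars are means of 3 libraries, error bars are SD and points are single libraries. Both shares are lower in all 3 treated libraries, at a mean of 8.76% against 16.2% for MT1E and 22.2% against 34.2% for MT1G.

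None of the other tested zinc exporters was higher after treatment. Of 9 other SLC30 genes, 3 had 0 reads throughout and 6 were tested. Of these, 0 rose and 5 fell at an adjusted p under 0.05 (edgeR), none by 2-fold. The rate of such calls over all tested genes was 39.0% higher and 38.6% lower, and the median log2 fold change of the 6 was -0.46, against -0.005 over all tested genes. SLC30A5, which loads zinc into the early secretory pathway, went from 81.0 ± 1.05 to 61.1 ± 3.62 CPM (SD, n = 3), a log2 fold change of -0.41 (SE 0.048, edgeR adjusted p = 1.49e-06). SLC30A9 was at -0.52 (SE 0.049, edgeR adjusted p = 1.11e-07), and SLC30A6, the partner of SLC30A5, at -0.62 (SE 0.072, edgeR adjusted p = 1.18e-06). SLC30A4, an exporter of intracellular vesicles, was just short of 2-fold at -0.98 (SE 0.142, edgeR adjusted p = 1.4e-05). It passed 2-fold with total counts (-1.14), without the third treated library (-1.08) and without the first untreated library (-1.09). Summed FPKM of the SLC30 family was 48.9 ± 0.825 in untreated and 70.5 ± 3.65 in treated libraries, and without SLC30A1 it was 44.8 ± 0.974 and 30.6 ± 2.0 (SD, n = 3).

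Among the SLC39 importers, 11 of 14 genes were tested, 3 were called lower and 1 higher by 2-fold, against 14.7% and 12.4% of all tested genes. Counting any fold change, 3 rose, 5 fell and 3 did not pass (edgeR, adjusted p under 0.05), against 39.0% higher and 38.6% lower over all tested genes. The median of the 11 log2 fold changes was -0.15. SLC39A10 (ZIP10), a plasma membrane importer known to be repressed through MTF1, was at 337, 334 and 334 CPM in untreated libraries and at 58.5, 55.3 and 65.7 CPM in treated ones. This gap far exceeded the spread in either group, with a log2 fold change of -2.48 (SE 0.053, edgeR adjusted p = 5.13e-15). SLC39A8 (ZIP8), which also carries manganese and cadmium, fell by 2.17 on the log2 scale (SE 0.072, edgeR adjusted p = 5.49e-13). SLC39A1 (ZIP1) fell by 1.35 (SE 0.047, edgeR adjusted p = 9.45e-13). SLC39A14 (ZIP14), an importer of zinc, iron and manganese, was at 174, 168 and 166 CPM and then at 337, 341 and 350.3 CPM. Its log2 fold change of 1.02 (SE 0.037, edgeR adjusted p = 1.31e-12) was close to the 2-fold mark and was below it under 4 of the alternatives. Summed FPKM of the SLC39 family was 263 ± 3.6 in untreated and 187 ± 7.09 in treated libraries (SD, n = 3). Within it, mean FPKM went from 59.8 to 9.54 for SLC39A10 and from 46.2 to 16.6 for SLC39A1. For SLC39A14 it went the other way, from 33.5 to 60.3. The FPKM sums of both families lack the library scaling used for CPM and fold changes. The 250 bases before the starts of SLC39A10, SLC39A8 and SLC39A1 held 0 matches to the metal response element core, where 24.7% of all promoters held at least 1. These starts were not checked against transcripts, and bases after them were not searched.

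**Figure D5:**
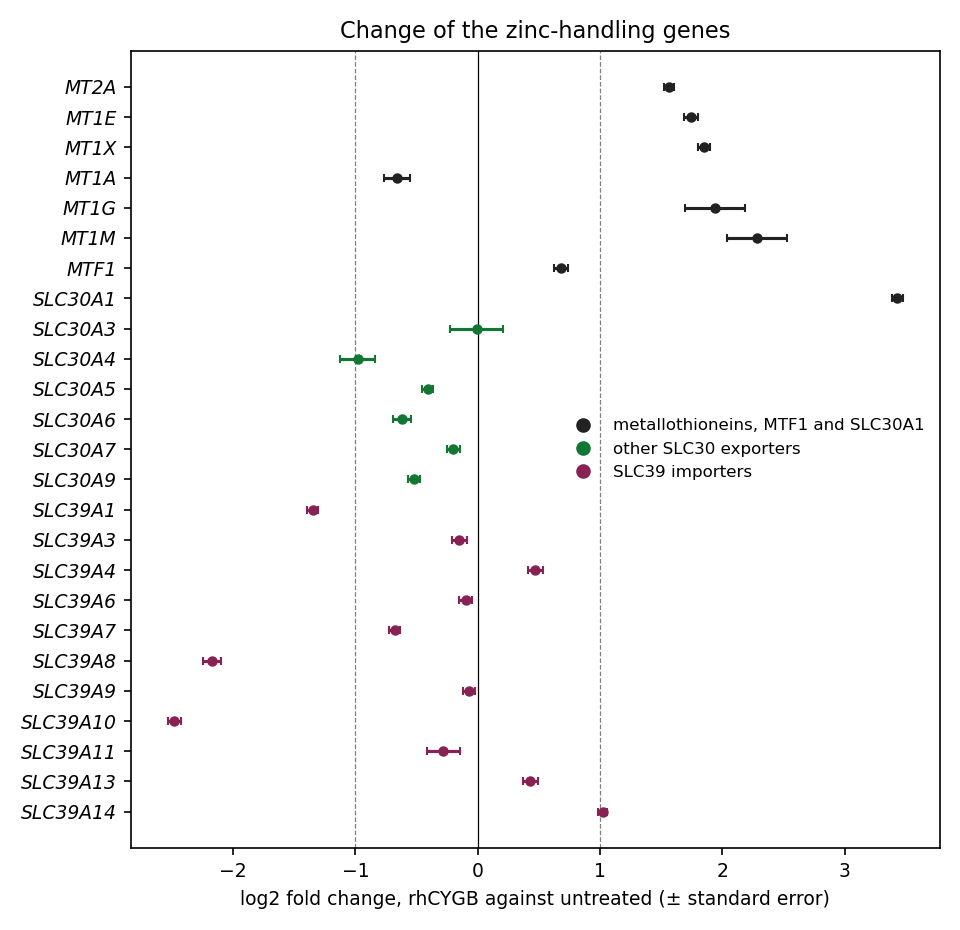
Log2 fold change of rhCYGB against untreated cells with its standard error for the tested members (black), the other SLC30 exporters (green) and the SLC39 importers (purple), with dashed lines at 2-fold. SLC30A1 is at 3.43, the other exporters lie between -0.98 and -0.01, and SLC39A10, SLC39A8 and SLC39A1 are below -1.

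Of 6 further genes known as targets of MTF1, 4 were tested, and 3 rose and 1 fell (edgeR, adjusted p under 0.05), where 39.0% of all tested genes rose and 38.6% fell. NDRG1, a stress-responsive gene, had 600, 808 and 711 reads and then 5120, 4479 and 5193 reads, or 17.2 ± 0.985 and 138 ± 3.12 CPM (SD, n = 3), a log2 fold change of 3.00 (SE 0.051, edgeR adjusted p = 5.82e-16). PGF, an angiogenic growth factor that falls outside the rule for naming genes and was named after its values were seen, rose by 1.03 on the log2 scale (SE 0.268, edgeR adjusted p = 0.00266) at 23 to 59 reads per library. It was under 2-fold with total counts (0.87), without the third treated library (0.93) and without the first (0.96) or the second (0.98) untreated library. SELENOW, a selenoprotein, rose by 0.38 (SE 0.052, edgeR adjusted p = 8.43e-06). The gene that fell was SLC39A10, described above.

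Other transcription factors that act on metallothionein promoters were also measured. Of 7, 5 rose and 2 fell at an adjusted p under 0.05 (edgeR), beside 39.0% and 38.6% of all tested genes. The median of the 7 log2 fold changes was 0.72, against -0.005 over all tested genes. NFE2L2 (NRF2), the regulator of the antioxidant response, went from 86.9 ± 3.89 to 238 ± 10.3 CPM (SD, n = 3), a log2 fold change of 1.45 (SE 0.045, edgeR adjusted p = 2.45e-13). HSF1, the heat shock factor, rose by 1.24 (SE 0.041, edgeR adjusted p = 5.13e-13). NR3C1, the glucocorticoid receptor, USF2 and SP1 rose by less than 2-fold, at 0.75, 0.72 and 0.46. USF1 and STAT3 fell, at -0.71 and -0.09, and STAT3 no longer passed without the first treated library (edgeR adjusted p = 0.115) or without the first (0.0581) or the second (0.119) untreated library.

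The genes most like MT2A and SLC30A1 over the 6 libraries were sought among 11496 genes with a mean of at least 100 reads, by the correlation of log2 CPM. For MT2A they were DEDD2, SLC25A43, ZNF263, ING3 and CEBPA (r of 0.9997 or more). For SLC30A1 they were LNX2, CDC42EP1, RNF10, TAF1D and ERRFI1 (r of 0.9999 or more). With the libraries in separate groups, such values mostly express the difference between the groups, and r was at least 0.99 for 1842 genes with MT2A and for 2023 with SLC30A1.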

How the data were processed

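RNA-seq of 3 untreated and 3 rhCYGB-treated MIA PaCa-2 libraries was analysed from the tables of 35993 genes and 81203 transcripts. The authors prepared stranded mRNA libraries with a TruSeq kit and used FastQC 0.11.7, HISAT2 2.1.0 and StringTie 2.1.3b (versions from the submitters' processing notes). Those notes name the mouse build mm10, while the table holds human RefSeq genes, so the build of the positions is uncertain. The read counts deposited by the authors are whole numbers without normalization, and the deposited FPKM values are scaled to transcript length and depth. The deposited TPM columns, 12 in all, were not used.

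Counts were fitted in R 4.3.3 with edgeR 4.0.16 (filterByExpr, TMM, quasi-likelihood test, two-sided, Benjamini-Hochberg adjustment over 14728 genes, no block). A call required an adjusted p under 0.05 and a 2-fold change. CPM use scaled library sizes. For correlations, log2 CPM were computed with 2 prior counts. Floors cover counting error only. The members and lists were chosen with earlier results of these data known. Named were all members, called genes of each list with a mean of at least 100 counts in the higher group (at most 6 per list), the most abundant SLC30 and SLC39 genes (at most 3 per family) and the 5 genes most like MT2A and SLC30A1. Further genes of the 10 lists were named after their values were seen. Alternatives were other scalings, DESeq2 1.42.0, limma 3.58.1 on log2(FPKM + 1) and log2(FPKM + 0.1), other filters, transcript sums, a replicate block and leaving out each library. On simulated counts with 200 changed genes among 14461, edgeR called 197 (98.5%) and 4 unchanged genes. Far fewer genes were changed there than were called here. The simulation therefore does not show how the fit behaves with so many changes or near the 2-fold mark. Protein sequences were not used here.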

Additional observations from a re-analysis of the deposited data

How the results depend on the processing

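The 8 tested members kept their direction under the 15 alternatives, and 6 to 7 members were 2-fold or more higher, the seventh being MT1F where it could be fitted. MT1F had few or no untreated reads in those fits and adds no support. The log2 fold change ran from 2.99 to 3.46 for SLC30A1, 1.39 to 1.60 for MT2A, 1.57 to 1.80 for MT1E, 1.68 to 1.89 for MT1X, 1.33 to 2.05 for MT1G, 1.48 to 2.35 for MT1M and 0.41 to 0.74 for MTF1. SLC39 genes lower by 2-fold (3) and other SLC30 genes lower (5) were as many under all 15. The 1 SLC39 gene higher by 2-fold, SLC39A14, became 0 with at least 10 counts in every library, both limma fits and total counts. Genes called higher went from 1833 to 1111 with limma on log2(FPKM + 0.1) and to 819 on log2(FPKM + 1), and genes called lower from 2165 to 1169 in the latter. These fits use 11797 genes and understate changes of low genes. They also use FPKM, which is scaled to depth without TMM. Their median log2 fold change over all genes was -0.105 with log2(FPKM + 0.1) and -0.091 with log2(FPKM + 1), against -0.005. The abundant MT2A was at 1.39 in both. Among the further MTF1 targets (SLC39A10 aside), promoter regulators, copper genes and metal channels, 5 genes higher by 2-fold became 3 with both limma fits and total counts (TRPM7 at 0.85, 0.74 and 0.86, and PGF at 0.87 with total counts and not fitted by limma), and 0 genes lower became 1 with the DESeq2 Wald test and no filter (TMEM163, removed by the filter) and with total counts (ATP7A). The cause was not tested. Same-numbered libraries did not deviate together (correlations -0.0479, 0.00715 and 0.00554), and correlations of differently numbered ones ran from -0.0551 to 0.0536. With 3 libraries per group, these values cannot show whether the libraries were handled in pairs. The replicate block gave 1817 higher and 2161 lower and changed no call among the genes refitted with it. Leaving out 1 library gave 1821 to 1892 higher and 2135 to 2267 lower. Depth limits MT1F and MT1H, and read sharing limits MT1G and may limit MT1M and MT1H.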

Other observations

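Copper is the other metal that metallothioneins bind, and 10 genes of copper handling were tested as a list. At an adjusted p under 0.05 (edgeR), 3 rose, 4 fell and 3 did not pass, none by 2-fold, where 39.0% of all tested genes rose and 38.6% fell, and the median of the 10 log2 fold changes was 0.11. SLC31A1 (CTR1), the copper importer of the plasma membrane, rose by 0.73 (SE 0.058, edgeR adjusted p = 1.5e-08). ATP7A, the copper-exporting ATPase, fell by 0.95 (SE 0.131, edgeR adjusted p = 8.47e-06), and the copper chaperone ATOX1 fell by 0.68 (SE 0.064, edgeR adjusted p = 1.12e-07). SCO2, which delivers copper to cytochrome c oxidase, rose by 0.92 (SE 0.087, edgeR adjusted p = 1.17e-07) and passed 2-fold without the first untreated library (1.04), and its partner SCO1 fell by 0.64 (SE 0.047, edgeR adjusted p = 5.7e-09).

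Of 4 further genes for channels and transporters that pass divalent metals, 3 were tested. TRPM7, a channel that passes magnesium and zinc, was at 50.4, 53.2 and 52.4 CPM in untreated libraries and at 103, 105 and 110.0 CPM in treated ones, a log2 fold change of 1.03 (SE 0.044, edgeR adjusted p = 9.36e-12) that was under 2-fold with 3 alternatives. MCOLN1, a lysosomal cation channel, was at 0.32 (SE 0.073, edgeR adjusted p = 0.000867), and SLC11A2 (DMT1), the iron transporter, was at -0.18 (SE 0.075, edgeR adjusted p = 0.0361). MCOLN1 did not pass with both limma fits and total counts (adjusted p of 0.0628 to 0.0729). SLC11A2 did not pass with the DESeq2 Wald test (adjusted p = 0.0721), with no filter (0.0536), or without the first (0.116) or the second (0.14) treated or the first (0.115) or the third (0.0513) untreated library.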
